A study of Mus musculus with 4 samples.

Results

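The genes described here are 51 genes of the extracellular matrix and of hepatic stellate cells, taken as a named list of symbols: collagens, basement membrane and matricellular proteins, small proteoglycans, cross-linking enzymes, metalloproteinases and their inhibitors, TGF-beta ligands, and genes that mark stellate cells in the activated or the quiescent state. Of them, 48 had a probe set of their own, out of 30748 genes with one, and each of the 48 had a single probe set. Loxl2 and Pdgfra lay on probe sets shared with other genes and are given no value, and Fbn1 is not analysed here. Expression was measured in whole mouse liver on 4 arrays, to ask what YAP, the Hippo pathway's transcriptional coactivator, does after an acetaminophen overdose that injures hepatocytes. The groups were YAP-KO at 24 h, wildtype at 24 h, YAP-KO at 0 h and wildtype at 0 h, each 1 array of RNA pooled from 3 mice. All mice were male and fasted, the wildtype mice carried floxed Yap1, and the 24 h mice of both genotypes had received 300 mg/kg acetaminophen into the peritoneum. The Cre driver, the cells in which Yap1 was deleted, the deleted exons and the age of the mice are not given in the sources used here.

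Stellate cells lie between hepatocytes and the sinusoidal endothelium and store retinoids. After injury they become contractile, take on a smooth muscle-like cytoskeleton and secrete matrix, and they revert or die when the liver heals. Early repair matrix is rich in fibronectin and matricellular proteins, which steer cell adhesion and migration, whereas fibrillar collagen accumulates mainly with repeated injury. TGF-beta is a main activating signal of these cells, and YAP is known to take part in their activation.

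Values are the deposited ones, on a log2 scale inferred from their range, and a difference of 1 is 2-fold. Response means 24 h minus 0 h within a genotype. The 4 arrays include none of undosed mice at 24 h, so the overdose cannot be told apart from time, handling or food intake. With 1 array per group no difference between single arrays has a replicate check or a p-value, and differences are described by size. Yap1 itself read 6.01 in YAP-KO and 8.24 in wildtype at 24 h, against 6.31 in YAP-KO and 7.54 in wildtype at 0 h, so it was lower in YAP-KO at both times, and a signal remained there. The hepatocyte markers Alb, Ttr, Apoa1 and Apob were saturated, within 0.01 of the highest value, on every array. The array medians over all probe sets were 4.36 in YAP-KO and 4.32 in wildtype at 24 h, and 4.46 in YAP-KO and 4.47 in wildtype at 0 h. With these medians subtracted every YAP-KO response becomes 0.1 higher and every wildtype response 0.15 higher, so no direction is drawn from responses smaller than that.

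At 24 h 9 of 12 activation and matricellular genes in YAP-KO, and 8 in wildtype, were past 2-fold above their 0 h level. The 5 fibrillar collagen chains stayed within 0.41 of theirs, at low signal, with means over the 4 arrays between 4.51 and 5.68. Of the 48 genes, 13 were at least 2-fold higher at 24 h in YAP-KO, which was 27.1% of them beside 2.86% of all genes, and 0 were 2-fold lower beside 1.46% of all genes. In wildtype 18 were at least 2-fold higher, which was 37.5% of them beside 7.65% of all genes, and 2, Col18a1 and Lrat, were 2-fold lower beside 3.71%. All of the 48 but Loxl3 and Mmp9 averaged above 4.32, the 40th percentile of gene means. With dimmer genes set aside, 18464 brighter genes remained. Of these 4.72% were 2-fold higher at 24 h in YAP-KO and 12.65% in wildtype, and 2.22% and 5.89% were 2-fold lower. Beside them the excess of higher genes among the 48 was smaller. Shares of all genes given below include the dimmer genes. The median response of the 48 genes was 0.185 in YAP-KO and 0.63 in wildtype, and that of all genes was -0.02 in YAP-KO and -0.08 in wildtype. In bulk tissue a change in the number of stellate cells and a change in RNA per cell cannot be told apart.

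The 12 measured activation and matricellular genes had a median response of 1.70 in YAP-KO and 1.68 in wildtype. Those under 2-fold in both genotypes were Des, Thbs2 and Ccdc80, and 0 were 2-fold lower in either. The 14 collagen chains had a median response of 0.10 in YAP-KO and -0.065 in wildtype, values within the shift between scalings. In YAP-KO 0 of the 14 were 2-fold higher at 24 h. In wildtype 3 were, Col12a1, Col4a1 and Col4a2, and Col18a1 was 2-fold lower. Some of these genes are also made by other liver cells, fibronectin by hepatocytes and basement membrane by endothelium.

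**Figure D1:**
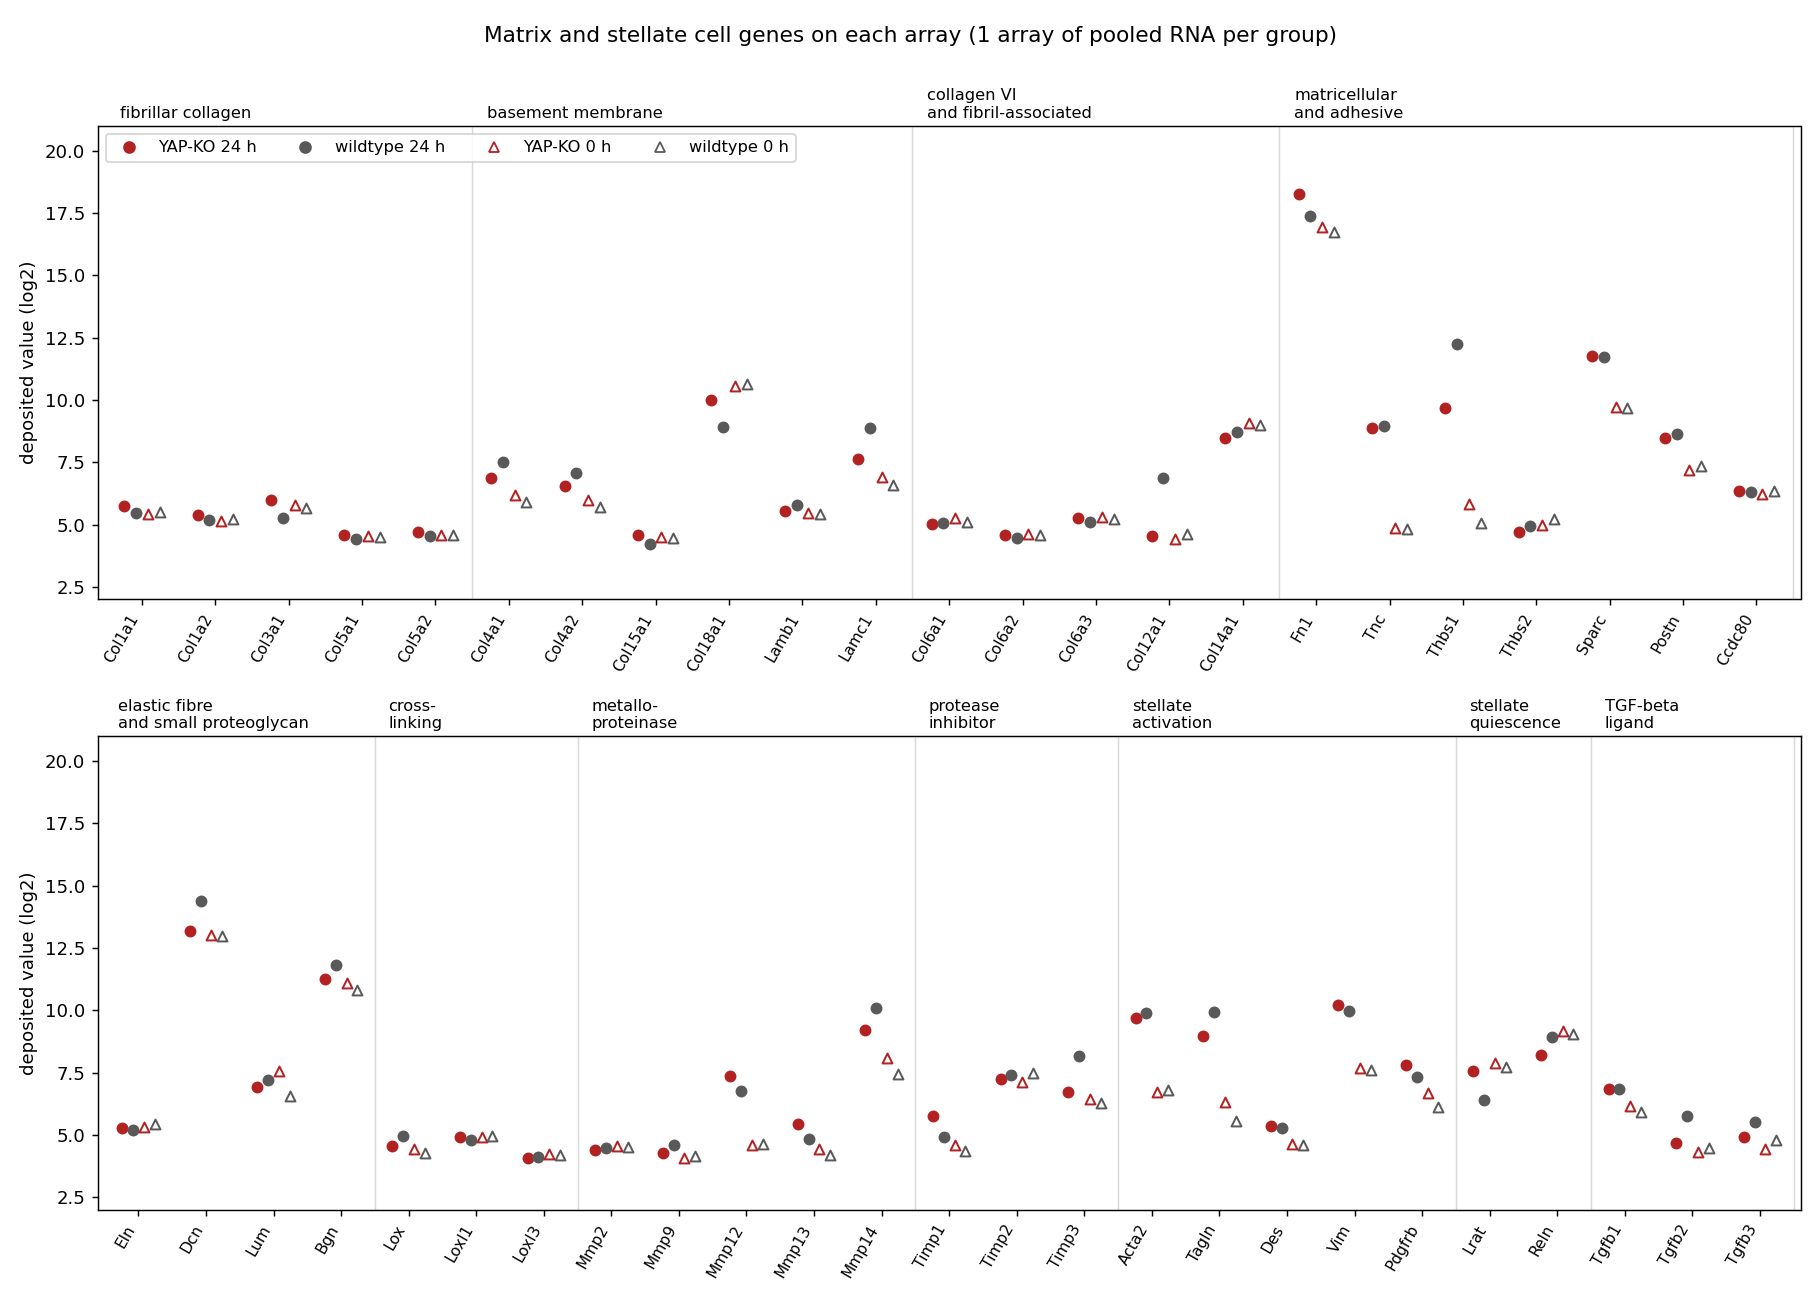
Deposited log2 values of the 48 genes on each array, in blocks by role, with filled circles for 24 h, open triangles for 0 h, red for YAP-KO and grey for wildtype. Tnc, Thbs1, Acta2, Tagln and Vim at 24 h sit far above their 0 h values in both genotypes, whereas the 4 values of each of Col1a1, Col1a2, Col5a1 and Col5a2 lie close together. Each point is 1 array, so there are no error bars, and levels are comparable between arrays within a gene but not between genes.

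Among the activation genes, Acta2, the smooth muscle actin by which activated stellate cells are recognised, read 9.67 in YAP-KO and 9.87 in wildtype at 24 h, against 6.71 in YAP-KO and 6.80 in wildtype at 0 h. Its responses were 2.96 in YAP-KO and 3.07 in wildtype, so it was about equally higher at 24 h on the arrays of both genotypes. Vim, the intermediate filament of mesenchymal cells and leukocytes, read 10.20 in YAP-KO and 9.98 in wildtype at 24 h, against 7.70 in YAP-KO and 7.60 in wildtype at 0 h. Pdgfrb, the receptor through which platelet-derived growth factor drives stellate cell growth and migration, read 7.79 in YAP-KO and 7.34 in wildtype at 24 h, against 6.70 in YAP-KO and 6.14 in wildtype at 0 h. Its responses of 1.09 in YAP-KO and 1.20 in wildtype were near each other, and its level was higher in YAP-KO at both times. Des, the muscle-type intermediate filament desmin, stayed under 2-fold in both genotypes, with responses of 0.73 in YAP-KO and 0.68 in wildtype.

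Tagln departed from Acta2. This actin-binding protein of smooth muscle and activated stellate cells read 8.96 in YAP-KO and 9.92 in wildtype at 24 h, against 6.31 in YAP-KO and 5.54 in wildtype at 0 h. Its response was 2.65 in YAP-KO and 4.38 in wildtype, a difference between responses of -1.73, and the genotypes changed order between the times. The 250 bases before the start of Acta2 are shown because this gene is the standard mark of stellate activation. They come from RefSeq (GRCm38.p6, minus strand, chr19:34255374-34255623), and the capitals mark the letters GGAATG, the core bound by the TEAD partners of YAP, at position -146 from the start.
Acta2: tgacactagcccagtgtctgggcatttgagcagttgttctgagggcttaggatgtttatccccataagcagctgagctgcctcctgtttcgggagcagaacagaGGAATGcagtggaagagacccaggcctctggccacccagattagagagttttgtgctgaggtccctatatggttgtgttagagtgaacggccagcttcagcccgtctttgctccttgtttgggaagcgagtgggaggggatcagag

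The letters GGAATG, searched on both strands of these 250-base windows, were present for 6 of the 29 genes, out of 48, that matched an entry (Acta2, Col18a1, Col3a1, Col6a2, Lrat and Timp1), or 20.7%, and for 14.4% of all genes with a window. The AP-1 letters TGANTCA were present for 3 of the 29 (Col6a1, Mmp12 and Mmp13), or 10.3%, and for 7.82% of all genes. The CArG box, the element bound by serum response factor, was searched in its strict form (CC, then 6 letters of A or T, then GG), which was present for 0 of the 29 and for 1.62% of all genes. With 1 base off that form allowed it was present for 7 of the 29 (Acta2, Col1a2, Col6a3, Lrat, Mmp14, Timp3 and Tnc), or 24.1%, and for 21.1% of all genes. The window of Acta2, a known target of serum response factor, holds 2 such runs, ccctatatgg at position -84 and ccttgtttgg at position -34, which are not capitalised. No gene had strict matches to more than 1 of the 3 motifs, and a match describes the letters of the window only.

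Lrat and Reln mark quiescent stellate cells, and they differed between the genotypes in opposite ways. Lrat, the enzyme that esterifies retinol for storage, read 7.58 in YAP-KO and 6.42 in wildtype at 24 h, against 7.88 in YAP-KO and 7.74 in wildtype at 0 h. It was 1.32 lower at 24 h than at 0 h in wildtype and 0.30 lower in YAP-KO, so at 24 h the wildtype array alone stood well apart from the other 3. Reln, a secreted glycoprotein of stellate cells, read 8.22 in YAP-KO and 8.94 in wildtype at 24 h, against 9.17 in YAP-KO and 9.04 in wildtype at 0 h. For Reln it was the YAP-KO array at 24 h that stood lowest, with a response of -0.95 in YAP-KO and -0.10 in wildtype. The window of Lrat is shown because Lrat had the highest genotype difference at 24 h of the 48 genes (RefSeq, GRCm38.p6, minus strand, chr3:82903975-82904224). Its capitals mark CATTCC, the reverse complement of the TEAD letters, at position -208.
Lrat: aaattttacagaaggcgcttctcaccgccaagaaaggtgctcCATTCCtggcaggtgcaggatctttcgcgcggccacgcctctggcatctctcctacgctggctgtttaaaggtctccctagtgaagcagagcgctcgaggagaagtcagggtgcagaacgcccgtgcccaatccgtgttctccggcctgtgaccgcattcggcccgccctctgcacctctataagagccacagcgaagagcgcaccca

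Among matricellular and adhesive genes 5 of 7 were at least 2-fold higher at 24 h in YAP-KO and 4 of 7 in wildtype. Tnc, an adhesion-modulating glycoprotein of healing wounds, read 8.88 in YAP-KO and 8.94 in wildtype at 24 h, against 4.88 in YAP-KO and 4.83 in wildtype at 0 h. Its response was 4.0 in YAP-KO and 4.11 in wildtype, the highest of the 48 genes in YAP-KO. Sparc, a collagen-binding matricellular protein, read 11.77 in YAP-KO and 11.73 in wildtype at 24 h, against 9.70 in YAP-KO and 9.68 in wildtype at 0 h. Postn, periostin, which binds integrins and collagen, read 8.47 in YAP-KO and 8.64 in wildtype at 24 h, against 7.19 in YAP-KO and 7.34 in wildtype at 0 h. The 24 h and 0 h values of Tnc, Sparc and Postn were well separated, and for each of the 3 the genotypes lay within 0.17 of each other at both times.

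Thbs1, thrombospondin 1, which activates latent TGF-beta, was the member with the largest response and the largest genotype difference at 24 h. It read 9.68 in YAP-KO and 12.23 in wildtype at 24 h, against 5.82 in YAP-KO and 5.06 in wildtype at 0 h. Its response was 3.86 in YAP-KO and 7.17 in wildtype, a difference between responses of -3.31, although it was the second highest response of the 48 genes in YAP-KO. Thbs2, its paralogue, read 4.72 in YAP-KO and 4.96 in wildtype at 24 h, against 4.99 in YAP-KO and 5.22 in wildtype at 0 h, and did not share that response. Fn1, fibronectin, the provisional matrix protein that hepatocytes also release into plasma, read 18.27 in YAP-KO and 17.36 in wildtype at 24 h, against 16.95 in YAP-KO and 16.72 in wildtype at 0 h. Its response was larger in YAP-KO, at 1.32, than in wildtype, at 0.64. Ccdc80, an adhesion-related matrix protein, had responses of 0.12 in YAP-KO and -0.04 in wildtype.

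The fibrillar collagens, the tensile fibres of scar, stayed near their 0 h values, which were low. Means over the 4 arrays ran from 4.51 for Col5a1 to 5.68 for Col3a1. The 40th percentile of gene means was 4.32 and the 60th was 5.465. Signal over background is unknown, so a fall from such levels might not show and a rise might read too small. Neither was tested. Col1a1 read 5.76 in YAP-KO and 5.46 in wildtype at 24 h, against 5.42 in YAP-KO and 5.52 in wildtype at 0 h. Col1a2, the other chain of type I collagen, read 5.40 in YAP-KO and 5.18 in wildtype at 24 h, against 5.13 in YAP-KO and 5.24 in wildtype at 0 h. Col3a1, type III collagen, read 5.98 in YAP-KO and 5.27 in wildtype at 24 h, against 5.79 in YAP-KO and 5.68 in wildtype at 0 h. The largest difference among the 5 fibrillar chains in any contrast was that of Col3a1 at 24 h, 0.71 higher in YAP-KO. Col5a1 and Col5a2, the type V chains that seed fibrils, had responses between -0.05 and 0.11. Each of the 3 chains printed in full stayed within 0.71 over all 4 arrays.

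Of 6 basement membrane genes, 0 were at least 2-fold higher at 24 h in YAP-KO and 3 in wildtype. Lamc1, the laminin gamma 1 chain shared by most laminins, read 7.62 in YAP-KO and 8.89 in wildtype at 24 h, against 6.93 in YAP-KO and 6.61 in wildtype at 0 h. Col4a1, a chain of the type IV collagen network, read 6.86 in YAP-KO and 7.51 in wildtype at 24 h, against 6.18 in YAP-KO and 5.89 in wildtype at 0 h. Col4a2, which assembles with Col4a1, read 6.54 in YAP-KO and 7.07 in wildtype at 24 h, against 5.99 in YAP-KO and 5.71 in wildtype at 0 h. For all 3 the wildtype array was the lowest at 0 h and the highest at 24 h, and the responses of Col4a1 and Col4a2 were alike, 0.68 and 0.55 in YAP-KO and 1.62 and 1.36 in wildtype. Lamb1, a laminin beta chain, and Col15a1, which bridges basement membrane and stroma, had responses of 0.06 and 0.09 in YAP-KO and 0.35 and -0.26 in wildtype.

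Col4a1 and Col4a2 are read in opposite directions from adjoining starts, and their windows are shown because these paired genes had like responses. They come from RefSeq (GRCm38.p6), Col4a1 from chr8:11312827-11313076 on the minus strand and Col4a2 from chr8:11312555-11312804 on the plus strand. The full 300-base windows of the table, which reach 50 bases past each start, share 78 bases. None of the 3 motifs was found in its strict form in the sequences below, which therefore have no capitals.
Col4a1: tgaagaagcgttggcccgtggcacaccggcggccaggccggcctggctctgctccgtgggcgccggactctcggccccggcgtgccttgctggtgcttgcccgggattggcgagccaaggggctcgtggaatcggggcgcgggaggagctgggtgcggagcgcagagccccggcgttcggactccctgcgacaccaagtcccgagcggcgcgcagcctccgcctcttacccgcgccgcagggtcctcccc
Col4a2: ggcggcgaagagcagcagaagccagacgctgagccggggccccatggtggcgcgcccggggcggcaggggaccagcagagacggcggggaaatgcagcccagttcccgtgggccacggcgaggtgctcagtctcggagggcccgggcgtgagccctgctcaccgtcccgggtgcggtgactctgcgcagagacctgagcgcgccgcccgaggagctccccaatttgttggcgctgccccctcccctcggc

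Col18a1, the basement membrane collagen whose end fragment is endostatin and which hepatocytes express, went the other way. It read 9.98 in YAP-KO and 8.91 in wildtype at 24 h, against 10.55 in YAP-KO and 10.63 in wildtype at 0 h. The 24 h level was lower than the 0 h level by 0.57 in YAP-KO and by 1.72 in wildtype. Col12a1, a fibril-associated collagen, reached 2-fold in wildtype and not in YAP-KO: it read 4.55 in YAP-KO and 6.87 in wildtype at 24 h, against 4.44 in YAP-KO and 4.61 in wildtype at 0 h. The YAP-KO array at 24 h was within 0.2 of both 0 h arrays. Col14a1, its fibril-associated relative, had responses of -0.60 in YAP-KO and -0.25 in wildtype, and the 3 type VI chains Col6a1, Col6a2 and Col6a3, which form beaded microfilaments, lay between -0.21 and -0.02 in both genotypes.

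Among the small leucine-rich proteoglycans, Dcn, decorin, which binds collagen and TGF-beta, read 13.17 in YAP-KO and 14.38 in wildtype at 24 h, against 13.03 in YAP-KO and 12.97 in wildtype at 0 h. Bgn, biglycan, its close relative, read 11.25 in YAP-KO and 11.82 in wildtype at 24 h, against 11.08 in YAP-KO and 10.81 in wildtype at 0 h. For both genes the wildtype array at 24 h stood above the other 3. Lum, lumican, a collagen fibril organiser, read 6.92 in YAP-KO and 7.21 in wildtype at 24 h, against 7.58 in YAP-KO and 6.55 in wildtype at 0 h. Both 24 h values of Lum lay between its 0 h values, so its opposite responses, -0.66 in YAP-KO and 0.66 in wildtype, come with a 1.03 difference between the genotypes already at 0 h. Eln, elastin, had responses of -0.07 in YAP-KO and -0.26 in wildtype.

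The cross-linking enzymes were under 2-fold in every contrast. Lox, lysyl oxidase, had responses of 0.13 in YAP-KO and 0.66 in wildtype, and Loxl1, which acts on elastin, had 0.00 in YAP-KO and -0.16 in wildtype. Loxl3 read between 4.08 and 4.22, below the 40th percentile of gene means (4.32) on all 4 arrays, and genes below it on all 4 are called dim here.

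Metalloproteinases cut matrix, and 3 of the 5 were at least 2-fold higher at 24 h in YAP-KO and 2 of the 5 in wildtype. Mmp12, the macrophage elastase, read 7.35 in YAP-KO and 6.78 in wildtype at 24 h, against 4.58 in YAP-KO and 4.63 in wildtype at 0 h. Mmp13, the main collagenase of rodents, read 5.45 in YAP-KO and 4.82 in wildtype at 24 h, against 4.45 in YAP-KO and 4.20 in wildtype at 0 h. Both were higher in YAP-KO than in wildtype at 24 h, Mmp12 by 0.57 and Mmp13 by 0.63. Mmp14, the membrane-bound protease that activates pro-MMP2, read 9.21 in YAP-KO and 10.10 in wildtype at 24 h, against 8.07 in YAP-KO and 7.44 in wildtype at 0 h. Mmp14 thus had the larger response in wildtype, at 1.14 in YAP-KO and 2.66 in wildtype. The gelatinases Mmp2 and Mmp9 stayed under 1.5-fold in every contrast.

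The windows of Mmp12 and Mmp13 are shown because both hold the AP-1 letters close to a start and both genes were higher at 24 h. They come from RefSeq (GRCm38.p6, plus strand), Mmp12 from chr9:7347124-7347373, the second of its listed starts, and Mmp13 from chr9:7272264-7272513. The window of the first listed start of Mmp12 does not hold the AP-1 letters and is not shown. Col6a1, whose window also holds these letters, had responses of -0.21 in YAP-KO and -0.07 in wildtype and is not shown either. Capitals mark TGANTCA, at position -44 for Mmp12 and -35 for Mmp13.
Mmp12: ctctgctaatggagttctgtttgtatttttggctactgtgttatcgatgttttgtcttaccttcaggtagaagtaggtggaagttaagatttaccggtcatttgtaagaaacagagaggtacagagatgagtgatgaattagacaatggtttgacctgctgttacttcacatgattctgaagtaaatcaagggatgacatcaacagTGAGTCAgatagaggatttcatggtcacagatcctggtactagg
Mmp13: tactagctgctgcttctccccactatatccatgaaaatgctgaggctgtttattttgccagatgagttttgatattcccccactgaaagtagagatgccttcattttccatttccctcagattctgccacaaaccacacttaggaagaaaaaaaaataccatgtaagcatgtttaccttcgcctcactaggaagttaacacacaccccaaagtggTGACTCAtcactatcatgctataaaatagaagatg

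The inhibitors of these proteases split by genotype. Timp1, the inhibitor most often linked to fibrosis, read 5.75 in YAP-KO and 4.92 in wildtype at 24 h, against 4.60 in YAP-KO and 4.36 in wildtype at 0 h. Timp3, the inhibitor bound to matrix, read 6.72 in YAP-KO and 8.18 in wildtype at 24 h, against 6.43 in YAP-KO and 6.29 in wildtype at 0 h. Timp1 was thus highest in YAP-KO at 24 h and Timp3 in wildtype at 24 h. Timp2, which also helps Mmp14 to activate pro-MMP2, had responses of 0.11 in YAP-KO and -0.07 in wildtype.

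Of the TGF-beta ligands, Tgfb2 read 4.66 in YAP-KO and 5.76 in wildtype at 24 h, against 4.30 in YAP-KO and 4.46 in wildtype at 0 h. Of the 3 ligands it alone reached 2-fold, in wildtype, with responses of 0.36 in YAP-KO and 1.30 in wildtype. Tgfb1, the ligand most studied in fibrosis, had responses of 0.69 in YAP-KO and 0.92 in wildtype, and Tgfb3 had 0.46 in YAP-KO and 0.73 in wildtype.

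**Figure D2:**
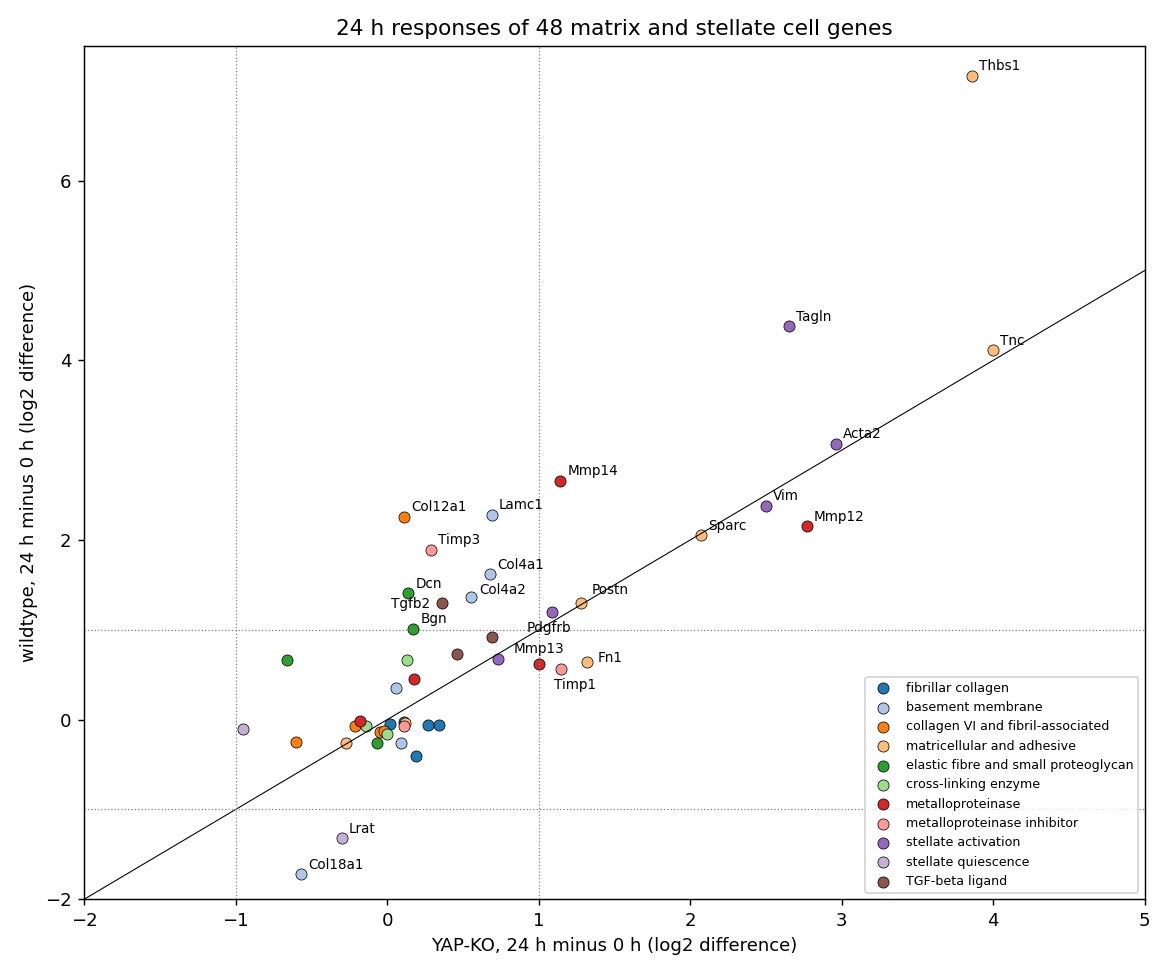
Response of each of the 48 genes in YAP-KO (horizontal axis) and in wildtype (vertical axis), both as 24 h minus 0 h on the log2 scale, coloured by role. The solid line marks equal responses and the dotted lines 2-fold: Tnc, Acta2, Vim, Sparc, Postn and Pdgfrb lie next to the line, Thbs1 and Tagln far above it, and Fn1, Mmp12 and Timp1 below it.

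Set side by side, 21 of the 48 genes (43.8%, beside 8.77% of all genes) were at least 2-fold higher at 24 h in one genotype or the other. In both genotypes 10 were (20.8%, beside 1.74% of all genes), namely Tnc, Thbs1, Sparc, Postn, Mmp12, Mmp14, Acta2, Tagln, Vim and Pdgfrb. Fn1, Mmp13 and Timp1, 3 genes (6.25%, beside 1.12% of all genes), reached 2-fold in YAP-KO but not in wildtype. Col4a1, Col4a2, Lamc1, Col12a1, Dcn, Bgn, Timp3 and Tgfb2, 8 genes (16.7%, beside 5.92% of all genes), reached it in wildtype but not in YAP-KO. Near the 2-fold line were Mmp13 at 1.0 in YAP-KO and Bgn at 1.01 in wildtype, inside it, and Reln at -0.95 in YAP-KO and Tgfb1 at 0.92 in wildtype, outside it. Some calls hold under one scaling or baseline and not another: quantile normalization put Pdgfrb in YAP-KO at 0.98, Bgn in wildtype at 0.98 and Tgfb2, YAP-KO minus wildtype at 24 h, at -0.97. Against the YAP-KO 0 h array, the wildtype responses of Pdgfrb and Bgn were 0.64 and 0.74. The responses of 6 of the 21, namely Tnc, Sparc, Postn, Acta2, Vim and Pdgfrb, were within 0.25 of each other, or 28.6%, beside 10.2% of all genes that were 2-fold higher in either genotype. The response was at least 1.5-fold larger in YAP-KO for 3 of the 21 (14.3%, beside 8.49% of such genes) and in wildtype for 11 (52.4%, beside 63.5%), the second being no higher a share than among all such genes. As a difference between responses, YAP-KO minus wildtype, 2 of the 48 were at least 2-fold higher (Col18a1 and Lrat, beside 3.76% of all genes) and 8 at least 2-fold lower (Thbs1, Col12a1, Tagln, Timp3, Lamc1, Mmp14, Lum and Dcn, beside 4.72%). The difference between responses was not tested, since 4 arrays leave no error for it.

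Before the overdose most genotype differences were small, but not all. The largest were those of Lum (1.03), Tagln (0.77), Thbs1 (0.76) and Mmp14 (0.63), each higher in YAP-KO. For these genes part of the difference between responses lies at 0 h. At 0 h 1 of the 48 genes, Lum, was at least 2-fold higher in YAP-KO beside 0.67% of all genes, and 0 were 2-fold lower beside 0.579%. At 24 h 2, Lrat and Col18a1, stood at least 2-fold higher in YAP-KO beside 2% of all genes, and 6 were at least 2-fold lower (Thbs1, Col12a1, Timp3, Lamc1, Dcn and Tgfb2) beside 3.48%. Of the 18464 brighter genes 3.24% were 2-fold higher in YAP-KO at 24 h and 5.73% were 2-fold lower. The median genotype difference of the 48 genes was 0.06 at 0 h and -0.045 at 24 h. Of the 48, 24 were under 2-fold in every contrast, and 17 of those under 1.5-fold in every contrast: Col1a1, Col1a2, Col5a1, Col5a2, Col15a1, Lamb1, the 3 type VI chains, Thbs2, Ccdc80, Eln, Loxl1, Loxl3, Mmp2, Mmp9 and Timp2.

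**Figure D3:**
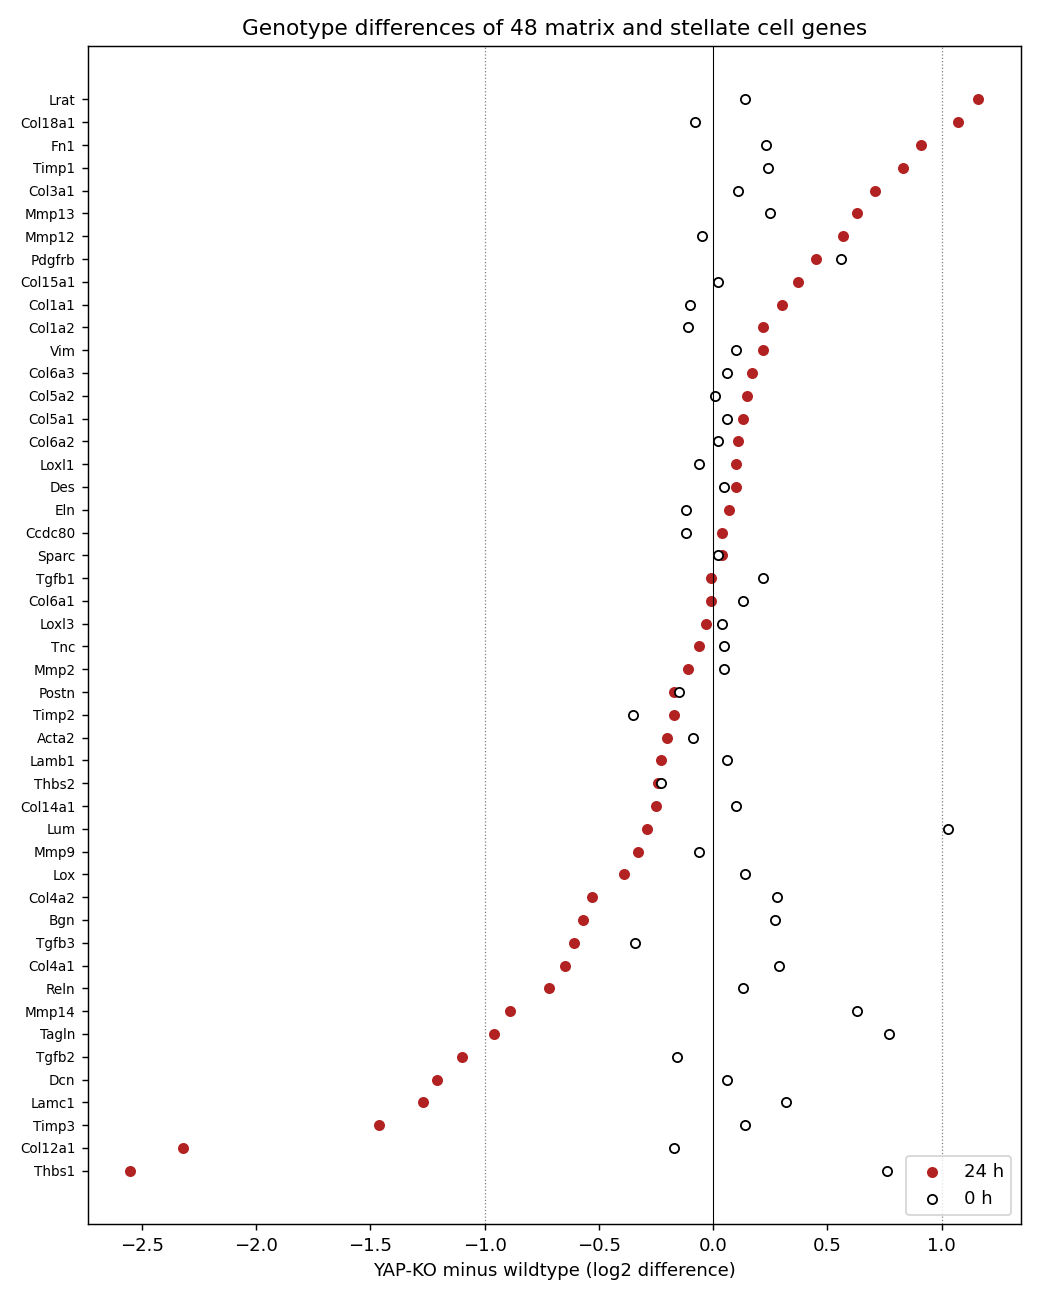
YAP-KO minus wildtype (log2 difference) of the 48 genes at 24 h (filled) and at 0 h (open), ordered by the 24 h difference, with dotted lines at 2-fold. Lrat and Col18a1 lie beyond 2-fold at the top at 24 h, 6 genes lie beyond it at the bottom, and at 0 h Lum alone passes it.

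A limma fit of genotype plus time, whose single residual degree of freedom is the interaction between them, called 0 of the 48 genes for time at a Benjamini-Hochberg adjusted p under 0.05, beside 0% of all genes, and 0 for genotype, also beside 0%. The lowest adjusted p among the 48 was 0.3354 for time and 0.9954 for genotype. Without adjustment, 18 of the 48 had a p under 0.05 for time, 37.5% of them beside 12.7% of all genes, and 1 of the 48 for genotype beside 2.66%. For time, Tnc had an estimate of 4.05 with a standard error of 0.13 and Acta2 one of 3.01 with the same error, 2 genes with near-equal responses in the genotypes. Thbs1, with the largest mean response of 5.51, had a standard error of 0.98 because its responses differed. The 1 gene for genotype was 2.08% of the 48, no higher a share than among all genes, so nothing is read into it. It was Pdgfrb, higher in YAP-KO by 0.56 at 0 h and by 0.45 at 24 h.

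Other genes of the pathway were counted by lists, and the genes named are among the highest or lowest of each list. Of all genes, 2.86% were at least 2-fold higher at 24 h in YAP-KO and 7.65% in wildtype, and the shares of short lists are read beside these. Of the 18464 brighter genes the shares were larger, 4.72% in YAP-KO and 12.65% in wildtype. Of 24 TGF-beta signalling genes 1 (4.17%, near the share of all genes) was at least 2-fold higher at 24 h in YAP-KO and 5 (20.8%) in wildtype, the median response being 0.10 in YAP-KO and 0.38 in wildtype. The 1 in YAP-KO was Tgfbi, 2-fold higher in both genotypes, with 1.80 in YAP-KO and 1.90 in wildtype. The wildtype 5 also included Tgif1, a repressor of SMAD transcription, with a response of 0.55 in YAP-KO and 3.64 in wildtype. Another was the type II receptor Tgfbr2, with -0.59 in YAP-KO and 2.86 in wildtype. Tgfbr2 differed before the overdose too, at 8.96 in YAP-KO against 7.76 in wildtype at 0 h. Of 15 measured matrix receptors 3 (20%) were 2-fold higher in YAP-KO and 7 (46.7%) in wildtype. The 3 reached 2-fold in both genotypes: Cd44 (1.73 in YAP-KO and 1.92 in wildtype), Itga5 (1.59 and 1.86) and Itga6 (1.34 and 2.05). Among those 2-fold higher in wildtype only were the integrin Itga3 (0.43 in YAP-KO and 3.91 in wildtype) and Itgb3 (0.14 in YAP-KO and 2.37 in wildtype). Itgb5 went the other way, with 0.52 in YAP-KO and -0.19 in wildtype. The stellate cell integrin Itga8 was lower at 24 h by 1.02 in YAP-KO and by 0.71 in wildtype.

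Of 13 measured matrix proteolysis genes 2 (15.4%) were 2-fold higher at 24 h in YAP-KO and 5 (38.5%) in wildtype. Adamts1, a proteoglycan-cutting protease, had a response of 0.68 in YAP-KO and 3.89 in wildtype, and Plaur, the urokinase receptor, 1.06 in YAP-KO and 3.00 in wildtype. Mmp3, stromelysin 1, had the larger response in YAP-KO, with 1.5 in YAP-KO and 0.89 in wildtype. Of 11 measured collagen processing genes 2 (18.2%) were 2-fold higher in YAP-KO and 1 (9.09%, near the share of all genes) in wildtype: Tgm2, the tissue transglutaminase that cross-links matrix, had 2.67 in YAP-KO and 3.86 in wildtype, and the collagen hydroxylase P3h1 had 1.36 in YAP-KO and 0.89 in wildtype. Serpinh1, the collagen chaperone, had 0.11 in YAP-KO and -0.23 in wildtype.

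**Figure D4:**
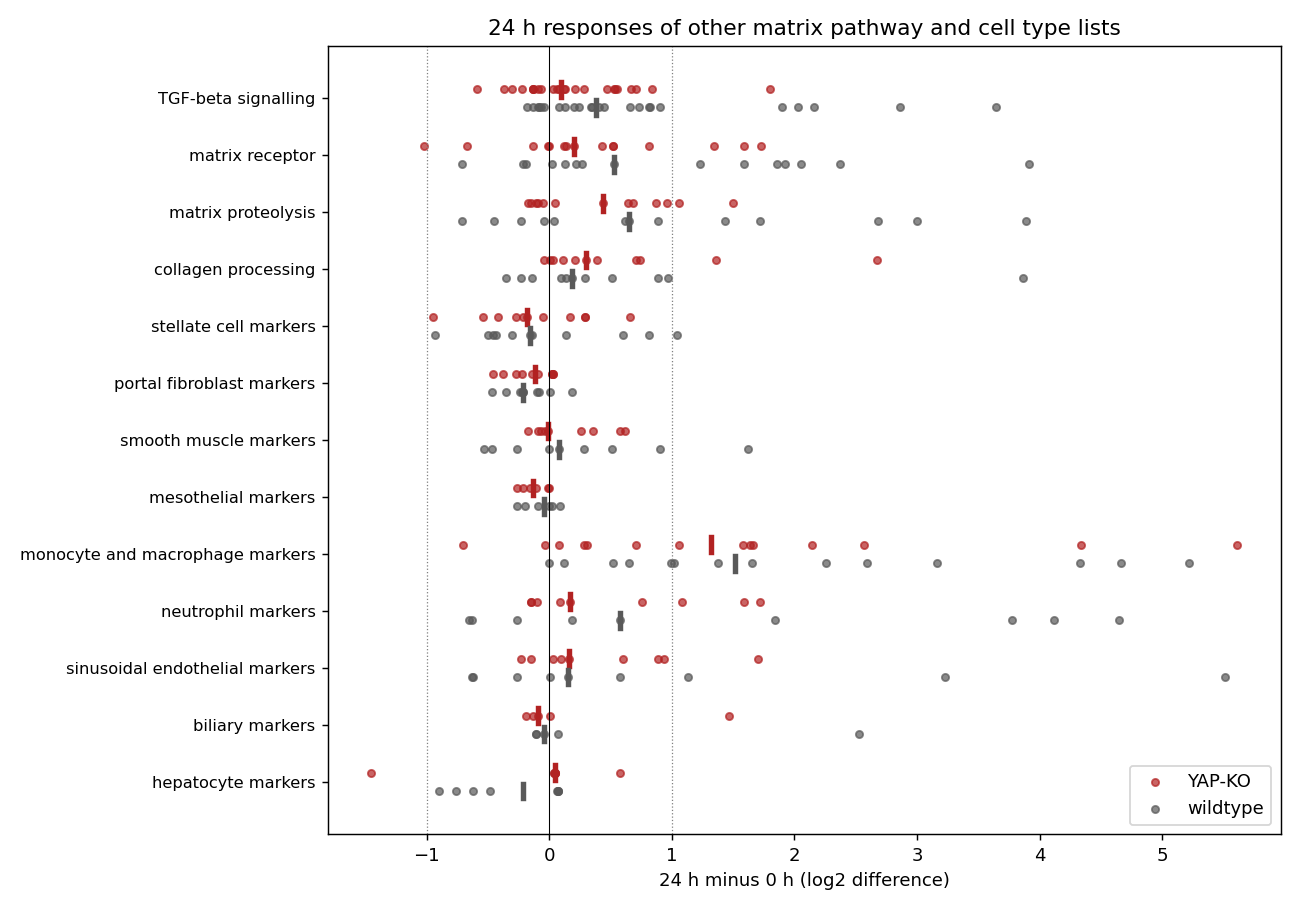
Responses (24 h minus 0 h, log2 difference) of the measured genes of 4 matrix pathway lists and 9 cell type marker lists, 1 point per gene, red for YAP-KO and grey for wildtype, with a bar at the list median. The monocyte and macrophage list median is 1.32 in YAP-KO and 1.515 in wildtype, while the medians of the stellate, portal fibroblast, smooth muscle and mesothelial lists lie between -0.21 and 0.08.

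Markers of stellate identity outside the 51 genes went both ways at 24 h. Of 11 measured markers, 0 were 2-fold higher at 24 h in YAP-KO and 1 in wildtype (Hgf, -0.18 in YAP-KO and 1.04 in wildtype), or 9.09%, near the share of all genes. None was 2-fold lower, Gfap was dim on all arrays, and the median response was -0.18 in YAP-KO and -0.16 in wildtype. Rgs5 was higher, by 0.66 in YAP-KO and 0.81 in wildtype, while Colec11 had -0.95 in YAP-KO and -0.46 in wildtype and Angptl6 -0.21 in YAP-KO and -0.93 in wildtype. Their mean level was 6.38 in YAP-KO and 6.47 in wildtype at 24 h, against 6.49 in YAP-KO and 6.50 in wildtype at 0 h. Of 9 smooth muscle markers 0 were 2-fold higher in YAP-KO and 1 (11.1%) in wildtype, Myl9, with 0.58 in YAP-KO and 1.62 in wildtype. Of 10 portal fibroblast and 6 mesothelial markers 0 reached 2-fold in either genotype, and Fbln1, Fbln2, Pi16, Msln and Wt1 were dim on all arrays.

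Leukocyte and endothelial markers also differed at 24 h on the same arrays, the endothelial ones mainly through a few genes. Of 14 monocyte and macrophage markers 8 (57.1%) were 2-fold higher at 24 h in YAP-KO and 9 (64.3%) in wildtype, beside 2.86% and 7.65% of all genes. The median response was 1.32 in YAP-KO and 1.515 in wildtype, but single genes differed. As a difference between responses 5 of the 14 were 2-fold lower and 1 higher, beside 4.72% and 3.76% of all genes. Cd14 had 0.71 in YAP-KO and 4.66 in wildtype, and Vsig4 had 0.08 and 1.65. Ly6c2 had 2.14 in YAP-KO and 0.65 in wildtype. The mean level of the 14 was 8.325 in YAP-KO and 8.96 in wildtype at 24 h, against 6.81 in YAP-KO and 6.92 in wildtype at 0 h. Of the 14, 0 were dim on all arrays. Of 9 neutrophil markers 3 (33.3%) were 2-fold higher in YAP-KO and 4 (44.4%) in wildtype, with a median response of 0.17 in YAP-KO and 0.58 in wildtype. The difference between responses was 2-fold lower for 4 of the 9 and 2-fold higher for 0, beside 4.72% and 3.76% of all genes. S100a8 had 1.59 in YAP-KO and 4.65 in wildtype, S100a9 1.72 and 3.77, and Retnlg 1.08 and 4.12. Against these, Ly6g had 0.09 in YAP-KO and -0.63 in wildtype, and Camp -0.15 in YAP-KO and -0.65 in wildtype. The mean of the 9 was 5.72 in YAP-KO and 6.59 in wildtype at 24 h, against 5.16 in YAP-KO and 5.08 in wildtype at 0 h. Ngp and Mpo were dim on all arrays. Of 9 sinusoidal endothelial markers 1 (11.1%) was 2-fold higher in YAP-KO and 3 (33.3%) in wildtype. The median response was only 0.16 in YAP-KO and 0.15 in wildtype. Lyve1 (0.89 in YAP-KO and 5.51 in wildtype) and Cdh5 (1.70 in YAP-KO and 3.23 in wildtype) stood out. Pecam1 had near-equal responses, 0.94 in YAP-KO and 1.13 in wildtype, while Kdr and Oit3 were 0.63 and 0.62 lower at 24 h in wildtype. The endothelial mean was 9.24 in YAP-KO and 9.74 in wildtype at 24 h, against 8.79 in YAP-KO and 8.73 in wildtype at 0 h. Of 5 measured biliary markers 1 (20%), Sox9, was 2-fold higher in both genotypes, with 1.47 in YAP-KO and 2.53 in wildtype. Of 8 hepatocyte markers 4 (Alb, Ttr, Apoa1 and Apob) were saturated on all 4 arrays and Cyp2e1 on 3, so their responses are not given. Of the 3 never saturated, Hnf4a had -1.45 in YAP-KO and -0.90 in wildtype, and Asgr1 0.58 in YAP-KO and -0.62 in wildtype. Cps1 had 0.04 in YAP-KO and -0.76 in wildtype, but except in wildtype at 24 h it lay just under the highest value of each array. Vim and Mmp12 are also expressed by macrophages, Thbs1 by platelets and leukocytes, and Col4a1, Col4a2 and Lamc1 by endothelium. The part of these cells in the values of those genes was not tested.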

How the data were processed

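Total RNA was extracted from liver with Trizol and biotin-labelled with the GeneChip WT Plus kit, per the labels' protocols, and 4 arrays were deposited as 1 value table. The values the authors deposited are taken as log2 from their range (2.24 to 19.93). The log base, summarisation, background correction and normalization are not given in the sources used here, and no depth or detection call goes with them. The number of arrays, 1 per group, limits the precision.

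Of 65956 probe sets, the platform annotation gave 31221 a single gene, 1529 several (left out) and 33206 none. Symbols were updated through RefSeq (GRCm38.p6). The brightest probe set stood for each of 30748 genes, with no filter on dim genes and no further normalization. Differences of 2-fold or more were counted for 5 contrasts. limma 3.58.1 (R 4.3.3) fitted genotype plus time over all genes, with Benjamini-Hochberg adjustment, and was tested on simulated data. The simulated data had equal noise in every gene and no interaction, unlike these arrays. That run therefore does not show how the fit behaves here. Tables were handled with pandas 2.3.3. Values on all 4 arrays are given for genes at 2-fold in any contrast and for Lrat, Reln, Col1a1, Col1a2 and Col3a1. Genes below the 40th percentile of gene means (4.32) on all 4 arrays are called dim. The genes, lists and markers were chosen with earlier results of these data known. Alternatives were array median subtraction, quantile normalization, the mean over probe sets, filters on dim genes, other fold thresholds and the other genotype's 0 h array as baseline. For the limma fit a prior trend with mean expression was also used.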

Additional observations from a re-analysis of the deposited data

Results flagged for a closer look

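The responses of 9 of the 48 genes had opposite signs in the genotypes as deposited, of which 3 (Col3a1, Col15a1 and Lum) kept them with array medians subtracted and 6 did not. The differences between responses, YAP-KO minus wildtype, were not tested. They were 0.40 for Col1a1, 0.33 for Col1a2, 0.60 for Col3a1, 0.07 for Col5a1, 0.14 for Col5a2, 0.35 for Col15a1, 0.16 for Ccdc80, 0.18 for Timp2 and -1.32 for Lum. For 8 of the 9 the responses in both genotypes were under 1.5-fold. Lum alone passed 1.5-fold in both genotypes, lower at 24 h in YAP-KO (6.92 at 24 h against 7.58 at 0 h) and higher at 24 h in wildtype (7.21 at 24 h against 6.55 at 0 h).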

How the results depend on the processing

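No paired analysis was possible because the groups share only replicate number 1. Of the counts and medians recomputed, 96 stayed within 1.5 times and 17 did not. The 96 include the mean over probe sets, which could change nothing, since each of the 48 genes had a single probe set. They also include the counts of the additive fit, which called 0 of all genes in every setting, so the 96 overstate how much was put to the test. Of the 27 medians 1 changed sign, the YAP-KO minus wildtype median at 24 h, which was 0.0075 with quantile normalization and -0.045 as reported. With a 4-fold threshold 7 genes were higher at 24 h in YAP-KO and 10 in wildtype, and 0 were lower in wildtype. With 4-fold, the YAP-KO minus wildtype difference at 24 h had 0 higher and 2 lower, 0 were higher at 0 h, and the difference of responses had 0 higher and 2 lower. With a 1.5-fold threshold 3 were lower at 24 h in YAP-KO. With 1.5-fold, the YAP-KO minus wildtype difference at 24 h had 6 higher and 11 lower, 4 were higher at 0 h, and the difference of responses had 6 higher and 13 lower. Quantile normalization left 1 gene 2-fold lower at 24 h in YAP-KO. Array median subtraction left 1 gene higher in the difference of responses, since that of Lrat became 0.97. A filter at the 60th percentile of gene means, which keeps fewer genes, gave a wildtype median response of 1.25. All 137 values of single genes kept their sign, 6 dropped under 2-fold (quantile normalization: Pdgfrb in YAP-KO, Bgn in wildtype and Tgfb2 between genotypes at 24 h; the other 0 h array: Pdgfrb and Bgn in wildtype; median subtraction: Lrat), and 6 moved by over 1.5 times, each with the other genotype's 0 h array as baseline: in YAP-KO Thbs1 became 4.62, Mmp14 1.77 and Tagln 3.42, and in wildtype Thbs1 became 6.41, Mmp14 2.03 and Tagln 3.61. That baseline gave 14 genes higher in YAP-KO and 17 in wildtype. The additive fit called 0 of the 48 genes under every setting. Signal over background is unknown here, so no floor can be given for genes near the low end of the arrays.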
